A study of Oryza sativa with 8 samples.

Results

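Phenylalanine ammonia-lyase PAL06, the 4-coumarate:CoA ligase 4CL5 and the chalcone synthase CHS1 are 3 rice genes that act in order along the route from phenylalanine to flavonoids, and their signal was examined in 3 cytoplasmic male-sterile (CMS) lines and the fertile maintainer line. They are 3 of the 14661 genes with a probe lying in that gene alone, and 4 probes stand for them (CHS1 has 2). The genes were chosen by their measured log2 differences between CMS lines and the maintainer, known from an earlier analysis of the same arrays. Their levels and differences are therefore a description here, and no test is given for them.

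The CMS lines were D62-A/MB (D-type sterile cytoplasm), ZS97-A/MB (WA type) and XQZ-A/MB (DA type), each made by repeated backcrossing of the sterile cytoplasm to Meixiang B (MB), and they were set against the male-fertile line MB itself. The 4 lines thus share most of the nuclear genome of MB, but replacement by MB nuclear DNA was incomplete, so nuclear and cytoplasmic differences cannot be told apart. RNA of 2 samples per line, taken at the uninucleate microspore stage, was hybridized to 8 arrays (Rice (Cn) Gene 1.1 ST). The sample labels call the tissue young panicle and the methods of the study call it anther, and in either case it is a mixture of cell types, in which fewer cells of a type and less RNA per cell cannot be told apart.

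Phenylalanine ammonia-lyase removes the amino group of phenylalanine and so opens the phenylpropanoid pathway, and 4-coumarate:CoA ligase activates the resulting acid as a CoA ester. At that ester the route branches: chalcone synthase commits it to flavonoids, while hydroxycinnamoyl transferases, O-methyltransferases and cinnamyl alcohol dehydrogenases lead to lignin and related wall phenolics. In anthers, phenylpropanoids are built into the pollen wall and flavonoids are deposited on the pollen surface by the tapetum, and in maize and petunia loss of chalcone synthase leaves pollen unable to function.

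All values are linear signal intensities as deposited, and log2 differences were taken after raising values below 16 to 16 (the floor) unless stated otherwise. The array medians were 7.65 to 8.15 on the replicate 1 arrays and 19.2 to 20.6 on the replicate 2 arrays, so lines were compared between arrays of 1 replicate number, and each gene is also given by its percentile among the 40832 probes of its array. Values in the study's own table of changed genes fitted the arrays of D62-A/MB and XQZ-A/MB with these names exchanged: 588 of 620 rows matched a probe within 0.005 log2 units after the exchange and 2 rows as labelled. Lines are named here by the array labels, so each statement below about D62-A/MB or XQZ-A/MB holds for the arrays labelled so.

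PAL06 was lower in XQZ-A/MB than in the other lines. Its intensity was 46.4 (replicate 1) and 91.6 (replicate 2) for D62-A/MB, 68.5 and 112 for ZS97-A/MB, 23.4 and 27.5 for XQZ-A/MB, and 56.2 and 90.1 for MB. In both replicate numbers XQZ-A/MB had the lowest signal and ZS97-A/MB the highest, and D62-A/MB and MB lay between them. The log2 difference from MB was -1.49 ± 0.32 in XQZ-A/MB (SD of the within-replicate differences, n = 2), 0.30 ± 0.02 for ZS97-A/MB and -0.13 ± 0.21 for D62-A/MB. D62-A/MB was below MB in replicate 1 (-0.28) and level with it in replicate 2 (0.02), so these neighbours in the order were not separated. The step between ZS97-A/MB and MB had the same sign in both replicates, at 0.29 and 0.32, and was close in size to the residual SD of the gene of 0.22 once the replicate number was taken into account.

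Relative to the other probes of the same array, PAL06 stood at percentiles 71.8 and 58.1 in XQZ-A/MB, against 83.7 and 84.3 in MB. The corresponding percentiles were 81.6 and 83.8 in D62-A/MB and 85.6 and 86.0 in ZS97-A/MB. The distance of XQZ-A/MB from the other lines was thus also seen in ranks within an array, which do not depend on the brightness of the array. Between replicate numbers the PAL06 signal of XQZ-A/MB differed least, by a ratio of 1.17 (replicate 2 over replicate 1), against 1.98 for D62-A/MB, 1.64 for ZS97-A/MB and 1.60 for MB.

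Among the CMS lines the PAL06 signal of ZS97-A/MB was 2.93 times that of XQZ-A/MB in replicate 1 and 4.09 times in replicate 2. D62-A/MB exceeded XQZ-A/MB by 1.36 ± 0.53 log2 units, 0.99 in replicate 1 and 1.74 in replicate 2. Averaged over the CMS lines, the difference of PAL06 from MB was -0.44 ± 0.03, a mean that joins lines lying on opposite sides of MB. Rice carries a family of phenylalanine ammonia-lyase genes with closely related sequences, and how much of the PAL06 probe's signal comes from other copies was not tested.

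**Figure D1:**
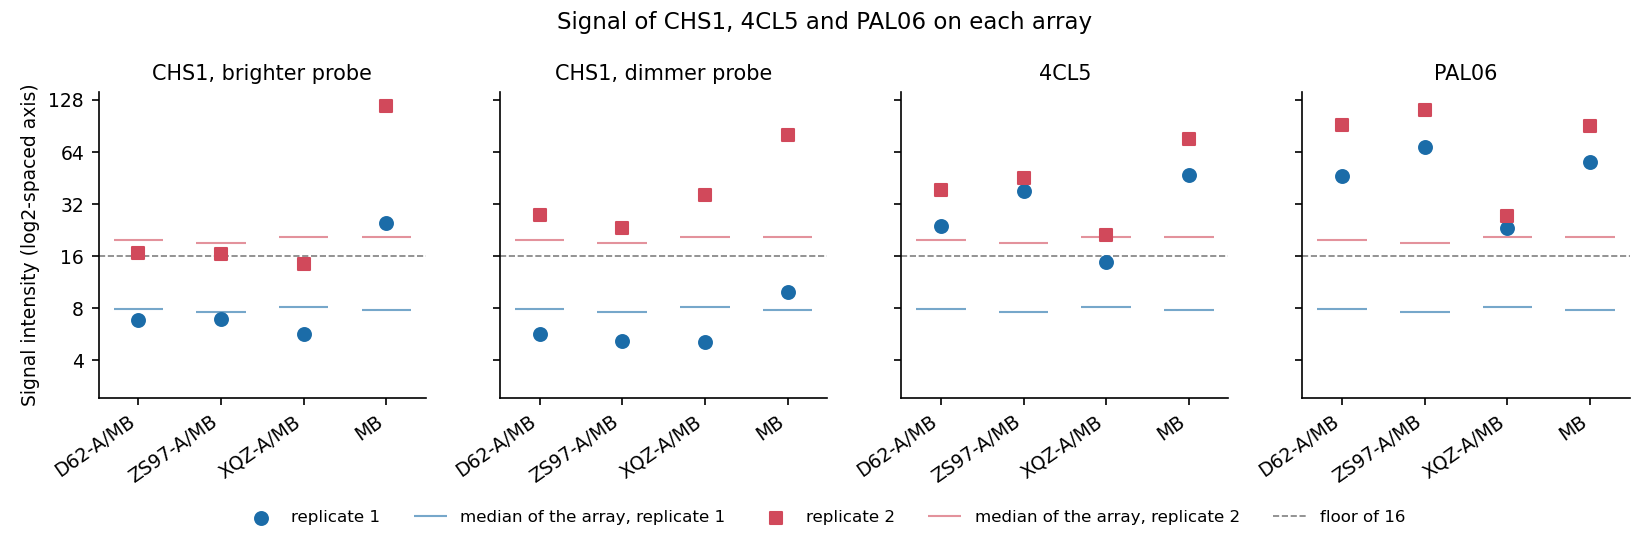
Signal intensity (log2-spaced axis) of both CHS1 probes, 4CL5 and PAL06 on each array of the sterile lines (D62-A/MB, then ZS97-A/MB, then XQZ-A/MB) and of MB, with circles for replicate 1, squares for replicate 2, short lines for the median of each array and a dashed line at the floor of 16. CHS1 is highest in MB (24.9 and 118 on the brighter probe), while 4CL5 and PAL06 are lowest in XQZ-A/MB.

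4CL5 was lower in every CMS line than in MB, to different degrees. Its intensity was 23.9 and 38.5 for D62-A/MB (replicates 1 and 2), 38.1 and 45.4 for ZS97-A/MB, 14.8 and 21.2 for XQZ-A/MB, and 47.2 and 76.3 for MB. Within each replicate number XQZ-A/MB was lowest, followed by D62-A/MB, then ZS97-A/MB, then MB. The difference from MB was -0.98 ± 0.0044 log2 units in D62-A/MB, -0.53 ± 0.31 for ZS97-A/MB and -1.71 ± 0.20 for XQZ-A/MB (SD of the within-replicate differences, n = 2), and the residual SD of the gene was 0.15. The value of XQZ-A/MB in replicate 1 lay under the floor, and without the floor the difference of this line was -1.76. In replicate 2 its value was near the array median of 20.5. No detection call was used here, so the 4CL5 signal of XQZ-A/MB was not shown to lie above background.

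The neighbours in the 4CL5 order were not equally spaced. D62-A/MB exceeded XQZ-A/MB 1.62-fold in replicate 1 and 1.82-fold in replicate 2. ZS97-A/MB exceeded D62-A/MB 1.59-fold and 1.18-fold, so the step between these 2 lines was small in replicate 2. By rank on the array, 4CL5 was at percentiles 63.7 and 50.9 in XQZ-A/MB, 72.0 and 66.9 in D62-A/MB, 78.1 and 71.0 in ZS97-A/MB, and 81.2 and 81.5 in MB. In XQZ-A/MB the gene was therefore close to the middle of all probes in replicate 2. The average of the CMS lines lay 1.07 ± 0.17 log2 units below MB, with -0.95 in replicate 1 and -1.20 in replicate 2.

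CHS1 was lower on every CMS array than on the MB array of the same replicate number. On its brighter probe the intensity was 6.88 and 16.8 for D62-A/MB (replicates 1 and 2), 6.90 and 16.4 for ZS97-A/MB, 5.68 and 14.5 for XQZ-A/MB, and 24.9 and 118 for MB. The CMS arrays were at percentiles 38.9 to 47.1, below the median of their arrays, and MB was at percentile 72.1 in replicate 1 and 88.1 in replicate 2. Of the 6 CMS arrays, 4 were under the floor of 16. No detection call was used here, so a level below the array median cannot be told from background, and the CMS lines cannot be ordered among themselves by CHS1.

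With the floor, the CHS1 difference from MB was -1.73 ± 1.54 in D62-A/MB, -1.74 ± 1.57 for ZS97-A/MB and -1.76 ± 1.59 for XQZ-A/MB (log2, SD of the within-replicate differences, n = 2). The CMS mean was -1.74 ± 1.57, with -0.64 in replicate 1, where all CMS values were set to the floor, and -2.85 in replicate 2. Without the floor the measured signals differed by -2.34 ± 0.68 in D62-A/MB, -2.35 ± 0.71 for ZS97-A/MB and -2.58 ± 0.64 for XQZ-A/MB, with a CMS mean of -1.94 in replicate 1 and -2.90 in replicate 2. The CMS side of these differences was not shown to lie above background, so they give no size of a change in expression. The spread lay mostly in MB. Its CHS1 signal was 4.76 times as bright in replicate 2 as in replicate 1, against 2.37 to 2.55 times in the CMS lines. These ratios are of measured signals, as are the array medians of D62-A/MB, 7.94 in replicate 1 and 20.0 in replicate 2. Over all tested probes the median change with the floor, an unlike measure, was 0.65 log2 units.

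The dimmer CHS1 probe had the same direction. Its intensity was 5.65 and 27.8 for D62-A/MB, 5.20 and 23.4 for ZS97-A/MB, 5.08 and 35.9 for XQZ-A/MB, and 9.92 and 79.8 for MB. Its measured signals without the floor averaged -1.19 ± 0.41 log2 units in the CMS lines against MB, -0.90 in replicate 1 and -1.48 in replicate 2, and in replicate 1 all 4 lines were under the floor. XQZ-A/MB was the lowest line on the brighter probe in both replicates but the highest CMS line on the dimmer probe in replicate 2, so the probes disagreed on the order of the CMS lines.

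All 3 genes passed the limit on mean signal that selected the 20416 probes tested (lowest mean 14.9), but CHS1 passed it through the MB arrays: its brighter probe averaged 11.2 over the 6 CMS arrays, against 71.5 over the MB arrays. At least 2-fold lower than MB in both replicate numbers, with the floor, were 4CL5 and PAL06 in XQZ-A/MB, where 2.48% of the tested probes met this, and none of the 3 genes in ZS97-A/MB (1.33% of probes) or D62-A/MB (1.18%). In the CMS mean, none of the 3 met it (1.46%). CHS1 could not meet it in any line with the floor. Its MB signal on the brighter probe in replicate 1, 24.9, was less than 2-fold above the floor. Without the floor, this probe was more than 2-fold lower on every CMS array than on the MB array of that number. Those CMS signals, and the 4CL5 signals of XQZ-A/MB, were not shown to lie above background. These differences chose the genes, so nothing is read from the counts. The comparisons with MB share the same MB arrays.

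**Figure D2:**
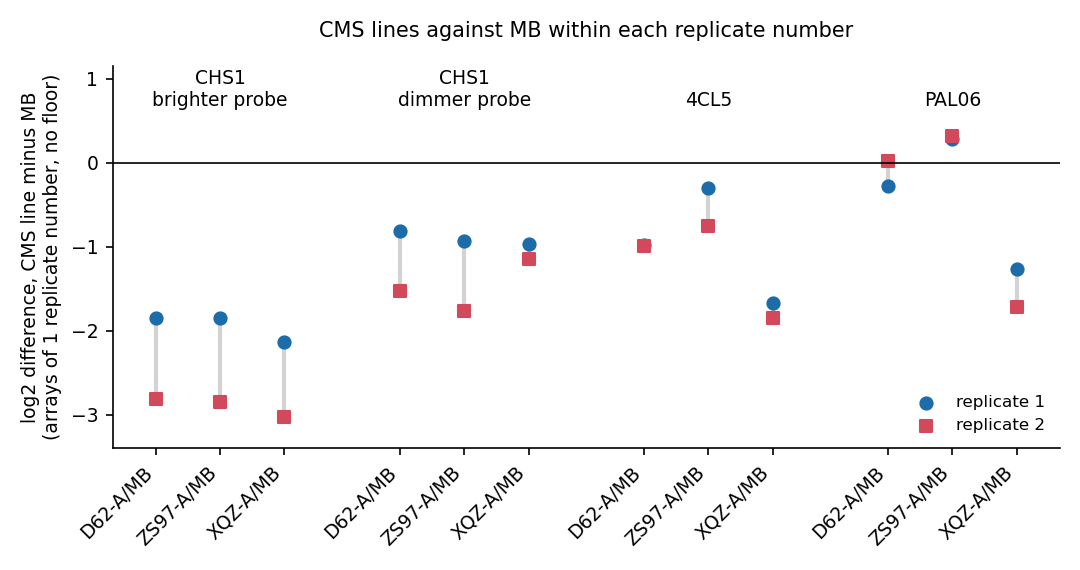
Log2 difference from MB (vertical axis, measured intensities without a floor, which for CHS1 in the CMS lines were not shown to lie above background) of CHS1, 4CL5 and PAL06 in each CMS line, with a circle for the arrays of replicate 1 and a square for those of replicate 2, joined by a bar. All CHS1 and 4CL5 points lie below 0, and PAL06 lies below 0 on both points in XQZ-A/MB (-1.26 and -1.71) and above 0 on both in ZS97-A/MB. The 4CL5 signals of XQZ-A/MB were also not shown to lie above background.

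Markers of the tapetum, the nutritive inner layer of the anther wall, differed between the lines along with CHS1. Of 12 listed tapetum markers, 6 had a probe. Without a floor, 5 (C4, C6, PTC1, RAFTIN1 and TDR) were lower on all 6 CMS arrays than on the MB array of that number. GAMYB was not lower on all of them. Of all tested probes, 13.2% had MB highest in both replicate numbers without a floor, and PTC1 was not among those tested. In replicate 1 the values of PTC1, RAFTIN1 and TDR lay under the floor in every line, MB included (11.1, 6.99 and 15.0). With the floor, only C4 and C6 were lower on every CMS array. The summed intensity of the 6 was 246 to 687 on the CMS arrays and 1278 to 3651 on the MB arrays. The tapetum regulators TDR and PTC1 were near or below the array median on the CMS arrays, at 3.38 to 19.2 and 3.29 to 12.1. The stamen identity gene MADS16, the 1 stamen marker with a probe, was lower on all 6 CMS arrays than on the MB array of that number. It was at 194 to 411 in the CMS lines and 381 to 807 in MB. The 4 lemma and palea markers summed to 504 to 1040 in the CMS lines and 637 to 732 in MB, and the 2 green tissue markers to 46.3 to 194 and 53.3 to 190. Of the 2 carpel markers DL was lower on all CMS arrays, and the sum was 25.2 to 72.6 in the CMS lines and 46.9 to 100.1 in MB. The part of these markers in the levels of CHS1, 4CL5 and PAL06 was not tested.

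The other genes of the pathway came from lists of 71 names for its enzymes and regulators. Of these 28 were found in the annotation by symbol or synonym, 21 had a probe of their own and 17 were tested. With limma, a coefficient per line and no term for the replicate number, 0 of the 17 passed (adjusted p under 0.01 over all tested probes and a 2-fold change) in any contrast, where 0% of all probes passed. At an unadjusted p under 0.05, 1 of the 17 was found in the CMS mean (1121 of the 20416 probes) and 1 in XQZ-A/MB (928 probes), 4CLL1 each time, and 0 in D62-A/MB (631 probes) or ZS97-A/MB (1168 probes). The median log2 difference from MB of the 17 genes was -0.15 for D62-A/MB, -0.21 for ZS97-A/MB and -0.06 for XQZ-A/MB, beside medians of 0.00, -0.01 and 0.02 over all tested probes. In the CMS mean it was -0.23, beside 0.01, and 13 of the 17 genes were below 0. 4CL1, 4CL2, ANS2, CAD3, CAD8A and CAD8D lay under the floor in every line in replicate 1. Their differences therefore rest on replicate 2. The median of the 17 genes moved with single arrays, and so did that of all tested probes. It was 0.28 without MB replicate 2, beside 0.37 over all probes, with 4 of the 17 below 0. Without MB replicate 1 it was -0.67, beside -0.34 over all probes, with 16 below 0.

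Since replicate numbers pair the arrays, the same fit was also made with the replicate number as a term. It called 1 of the 17 genes lower in XQZ-A/MB, where 1.75% of all probes were called lower, and 0 of the 17 lower in D62-A/MB (0.0294% of the probes), ZS97-A/MB (0.779%) or the CMS mean (1.43%). Called higher were 0 of the 17 in each of these contrasts, where 0.309% of all probes were called in XQZ-A/MB, 0% in D62-A/MB, 0.852% for ZS97-A/MB and 0.372% for the CMS mean. Between CMS lines, 0 genes of the pathway and 0% of the probes were called by either fit. At an unadjusted p under 0.05 the fit with the term found 7 of the 17 in the CMS mean (5433 probes), 5 in D62-A/MB (4220 probes), 5 for ZS97-A/MB (5812 probes) and 5 for XQZ-A/MB (4443 probes), each against MB, and 2 of the 17 in ZS97-A/MB against the other CMS lines (4407 probes) and 3 in D62-A/MB against XQZ-A/MB (2786 probes).

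The gene called was ROMT-17, an O-methyltransferase of the caffeoyl-CoA type that acts beyond the CoA ester. Its intensity was 180 and 322 for D62-A/MB (replicates 1 and 2), 225 and 427 for ZS97-A/MB, 125 and 210.0 for XQZ-A/MB, and 297 and 465 for MB. XQZ-A/MB was the lowest and MB the highest line in both replicate numbers, as for 4CL5. The log2 difference of XQZ-A/MB from MB was -1.20 (SE 0.13, adjusted p = 0.00434 by limma with the replicate term), and the signal of MB was 2.39 and 2.21 times that of XQZ-A/MB in replicates 1 and 2. Without the term the same difference had SE 0.52 and adjusted p = 1. With the term, leaving out each array in turn gave differences of -1.10 to -1.30. The call was not kept in all of these fits. Each of them left 1 array in a line, so a lost call there is not read as a trait of this gene.

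ROMT-17 did not pass in the other lines, with -0.63 (SE 0.13, adjusted p = 0.0553) in D62-A/MB and -0.26 (SE 0.13, adjusted p = 0.25) in ZS97-A/MB by limma with the replicate term. Its difference between ZS97-A/MB and the other CMS lines, 0.65 (SE 0.12), had an adjusted p of 0.038, above the limit of 0.01. ROMT-15, which neighbours ROMT-17 on the chromosome and encodes an enzyme of the same type, was named for its mean signal within the lignin list. It had 616 and 971 for D62-A/MB, 671 and 919 for ZS97-A/MB, 450 and 740 for XQZ-A/MB, and 811 and 1349 for MB. It had the same lowest and highest line as ROMT-17, but its difference of -0.86 in XQZ-A/MB (SE 0.14, adjusted p = 0.0135 by limma with the replicate term) passed neither limit. The genes are close relatives, and signal shared between their probes was not tested.

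The other 4-coumarate:CoA ligase genes had other line orders than 4CL5. 4CL4, named for its mean signal within this family, had 160 and 242 for D62-A/MB, 209 and 329 for ZS97-A/MB, 169 and 231 for XQZ-A/MB, and 154 and 204 for MB, so that MB, the highest line for 4CL5, was the lowest for 4CL4. The difference of 4CL4 from MB was 0.57 in ZS97-A/MB (SE 0.13, adjusted p = 0.0389 by limma with the replicate term) and 0.29 in the CMS mean (SE 0.11, adjusted p = 0.143), and neither passed. 4CL3 had 73.0 to 127 over all arrays with no line lowest or highest in both replicates. 4CL1 and 4CL2 were at 6.02 to 10.4 in replicate 1 and 24.0 to 42.9 in replicate 2, on their brighter probes. The 4CL-like gene 4CLL1, of a related group of ligases, had 17.0 and 21.6 for D62-A/MB, 13.8 and 21.8 for ZS97-A/MB, 12.1 and 17.6 for XQZ-A/MB, and 26.7 and 31.0 for MB, and its difference in the CMS mean was -0.66 (SE 0.11, adjusted p = 0.0154 by limma with the replicate term).

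Of the other flavonoid genes with a probe, CHS2 and CHI were near or below the medians of their arrays. The other chalcone synthase gene, CHS2, was at 2.83 to 9.71 and the chalcone isomerase gene CHI, which acts directly after chalcone synthase, at 4.58 to 21.3 over all 8 arrays, and neither had a mean high enough to be tested. ANS2, of anthocyanidin synthesis, had 10.2 and 19.7 for D62-A/MB, 11.8 and 17.6 for ZS97-A/MB, 14.5 and 24.2 for XQZ-A/MB, and 13.5 and 20.6 for MB, at percentiles 47.5 to 63.3. Its difference in the CMS mean was -0.01 (SE 0.12, adjusted p = 0.972 by limma with the replicate term). ANS2 lay under the floor in every line in replicate 1, so this difference rests on replicate 2. The listed names of other phenylalanine ammonia-lyases, of cinnamate hydroxylase and of the sporopollenin polyketide enzymes were not found in the annotation. Whether the arrays hold probes for them was therefore not examined. Of the 6 listed regulators of the pathway 1 was found, without a probe of its own. These steps were not analysed here.

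Beyond ROMT-15 and ROMT-17, 9 genes of the lignin branch were tested and none passed by either fit. HCT2, a hydroxycinnamoyl transferase gene, was even across lines, at 265 to 438 in the CMS lines and 289 to 404 in MB. HCT1 was lower on every CMS array than on the MB array of that number, at 108 to 252 in the CMS lines and 160 to 264 in MB. Its CMS mean difference was -0.31 (SE 0.13, adjusted p = 0.171 by limma with the replicate term). In XQZ-A/MB it was nearly level with MB, at -0.05 (SE 0.16). CAD2, the cinnamyl alcohol dehydrogenase of the gold hull locus, had 197 and 345 for D62-A/MB, 192 and 353 for ZS97-A/MB, 184 and 243 for XQZ-A/MB, and 221 and 488 for MB on its brighter probe. XQZ-A/MB was the lowest line on both CAD2 probes in both replicates, with 39.3 and 48.1 on the dimmer one against 77.4 and 111 in MB, and the difference on the brighter probe was -0.64 (SE 0.19, adjusted p = 0.0964 by limma with the replicate term).

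**Figure D3:**
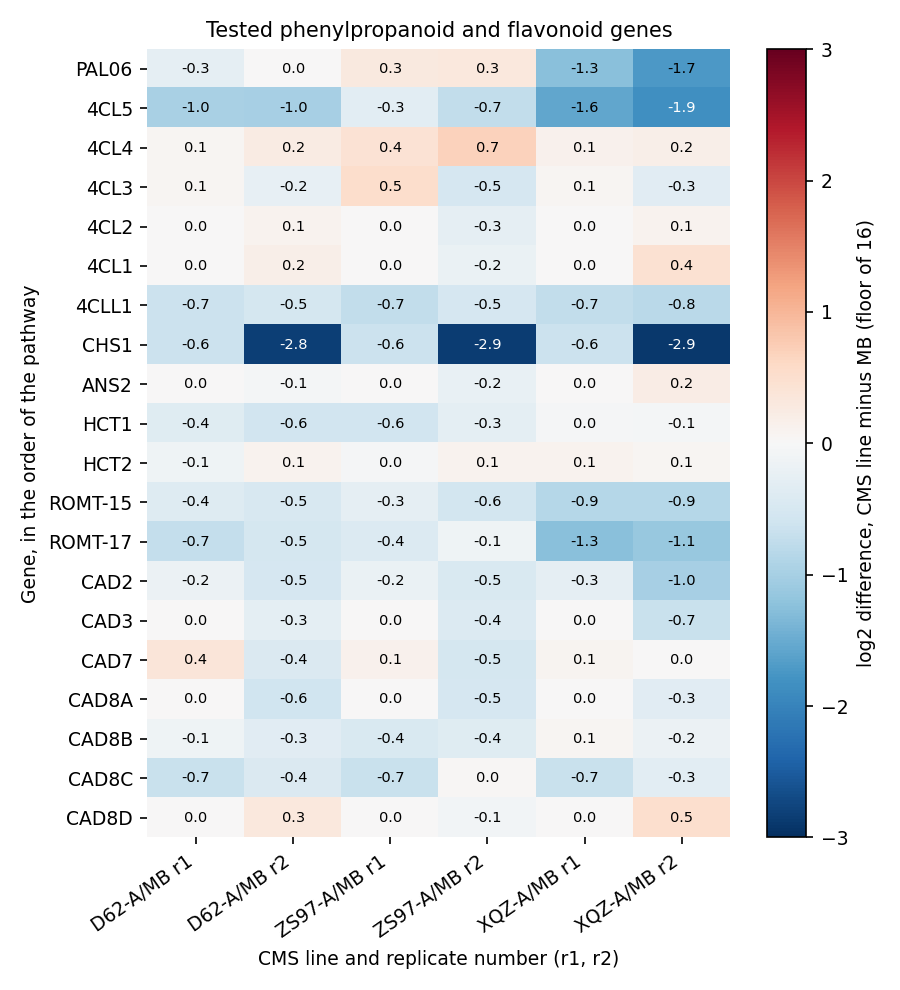
Log2 difference from MB (floor of 16) of the 20 tested genes of the phenylpropanoid and flavonoid lists, in pathway order down the page, for each CMS line and replicate number (r1, r2), blue for lower than MB and red for higher. 4CL5, CHS1, 4CLL1, HCT1, ROMT-15, ROMT-17 and CAD2 are below MB in all 6 columns (HCT1 only slightly in XQZ-A/MB), while 4CL4 is above MB in all 6.

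The order of the lines was then counted, with the floor. 4CL1, 4CL2, ANS2, CAD3, CAD8A and CAD8D lay under it in every line in replicate 1, so they could not be counted. The same holds for any such probe among all tested probes. XQZ-A/MB was the lowest of the 4 lines in both replicate numbers for ROMT-15, ROMT-17 and CAD2, 3 of the 17 other pathway genes, where 11.2% of all tested probes had this order, and likewise for PAL06 and 4CL5. MB was the highest line in both replicate numbers for 5 of the 17 (4CLL1, HCT1, ROMT-15, ROMT-17 and CAD2), where 11% of all probes were, and likewise for 4CL5 and CHS1. MB was the lowest line for 1 of the 17, 4CL4 (13.3% of all probes). ZS97-A/MB was highest for 1 of the 17, 4CL4 (17.2% of all probes), and for PAL06. In the CMS mean 7 of the 17 were lower than MB in both replicate numbers (21.3% of all probes) and 1 was higher (31.4%). In single lines, 7 of the 17 were lower in both replicate numbers in D62-A/MB (20.5%), 6 for ZS97-A/MB (22.3%) and 6 for XQZ-A/MB (24.6%), and at least 2-fold lower in both was ROMT-17 in XQZ-A/MB. Higher in both replicate numbers were 1 of the 17 in D62-A/MB (26.8%) and 1 for ZS97-A/MB (32.9%), 4CL4 each time, and 3 for XQZ-A/MB (4CL4, HCT2 and CAD7, 27.5%).

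**Figure D4:**
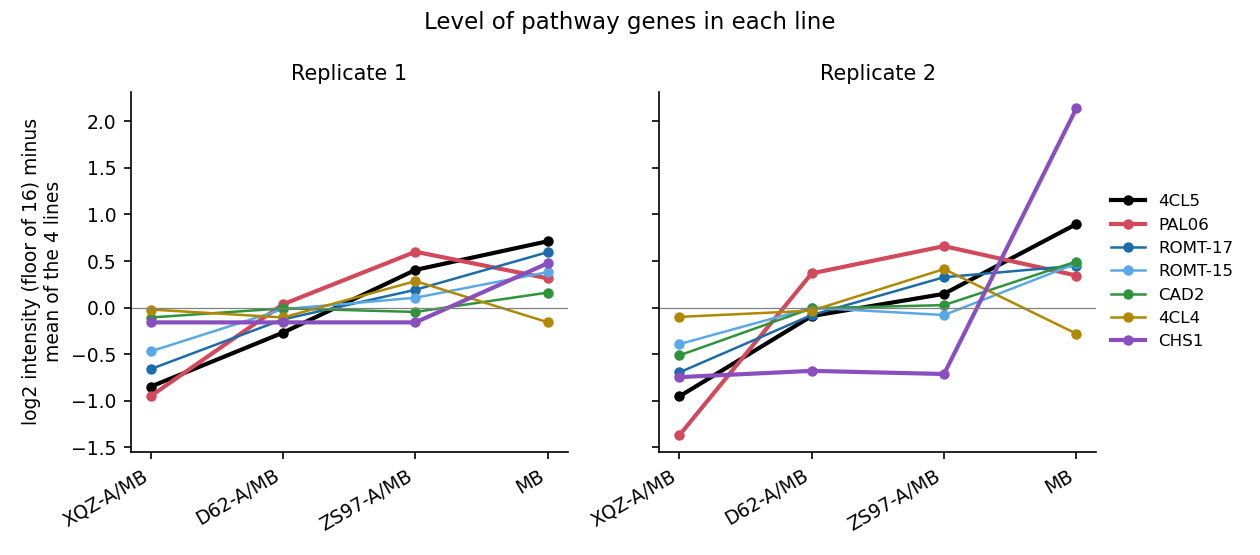
Log2 intensity (floor of 16) minus the mean of the 4 lines for 7 pathway genes, in the sterile lines (XQZ-A/MB, then D62-A/MB, then ZS97-A/MB) and in MB, with replicate 1 in the left panel and replicate 2 in the right. PAL06, 4CL5, ROMT-15, ROMT-17 and CAD2 are lowest in XQZ-A/MB in both panels, CHS1 is highest in MB, and 4CL4 is lowest in MB.

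The likeness of patterns was measured by Pearson's r over the 8 arrays after each replicate number was centred on its mean (log2, floor of 16), among 1471 other tested genes with a symbol. These r are descriptions over arrays that share lines and replicate numbers, and the highest of many values are large in any case. 4CL5 had r = 0.83 with PAL06 and 0.67 with CHS1, and CHS1 with PAL06 had 0.25. Of the other pathway genes, ROMT-17 (0.97) and ROMT-15 (0.96) were the most like 4CL5, ROMT-17 (0.87) the most like PAL06, and CAD8A (0.89) the most like CHS1. CAD8A lay under the floor in every line in replicate 1 (9.51 to 12.4), so its r rests on replicate 2, at 21.0 to 31.6. The lowest r among these pathway genes was with 4CL4 for CHS1 (-0.58), with ANS2 for PAL06 (-0.75) and with CAD8D for 4CL5 (-0.62). ANS2 and CAD8D also lay under the floor in every line in replicate 1.

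The 5 genes most like CHS1 were ACO1, of ethylene synthesis (r = 1.00), the floral homeotic gene MADS4 (0.99), the aspartic protease gene AP25 (0.99), the homeodomain-leucine zipper gene HOX33 (0.99) and the DNA glycosylase gene DNG701 (0.99). AP25 had 13.2 and 25.6 for D62-A/MB, 14.1 and 21.0 for ZS97-A/MB, 13.5 and 27.9 for XQZ-A/MB, and 30.2 and 224 for MB, like CHS1 with low CMS values and an MB value that was far higher in replicate 2 than in replicate 1. ACO1 had 7.92 to 17.8 in the CMS lines and 19.5 and 38.5 in MB. All CMS values of MADS4, and of DNG701 all but those of D62-A/MB and ZS97-A/MB in replicate 2, lay under the floor, so that likeness to CHS1 among such genes rests largely on MB.

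The 5 genes most like 4CL5 were the metal transporter gene NRAMP3 (r = 0.99), BFRP (0.98), the sucrose transporter gene OsSUT4 (0.98), the ascorbate peroxidase gene APX1 (0.97) and the allene oxide cyclase gene aoc of jasmonate synthesis (0.97). APX1 had 295 and 520 for D62-A/MB, 405 and 666 for ZS97-A/MB, 191 and 275 for XQZ-A/MB, and 470 and 771 for MB, the line order of 4CL5 in both replicates. The 5 most like PAL06 were the homeobox gene OsWOX13 (0.98), ASB1, for the beta subunit of anthranilate synthase in tryptophan synthesis (0.98), IPP (0.98), ARF2 (0.97) and the CCCH zinc finger gene OsC3H65 (0.96). ASB1 had 76.7 and 123 for D62-A/MB, 103 and 157 for ZS97-A/MB, 49.0 and 57.7 for XQZ-A/MB, and 97.3 and 154 for MB. IPP had 233 and 328 for D62-A/MB, 288 and 544 for ZS97-A/MB, 97.5 and 123 for XQZ-A/MB, and 265 and 438 for MB, so that XQZ-A/MB was apart from the other 3 lines in both genes, as for PAL06.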

How the data were processed

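The authors deposited 1 signal intensity per probe and array, on a linear scale. The labels name MAS5, without a version, and the methods of the study name Robust Multichip Analysis with log transformation. A further deposited table was equal (largest difference 0) apart from 98 control rows. The 8 arrays gave 40832 probes, of which 15295 lay in 1 annotated gene (14661 genes) and 436 in several. The RefSeq tables give no identifiers of the Rice Annotation Project for these genes, so listed genes were found by symbol or synonym. The number of arrays, 2 per line, limits the precision, and p-values measure only the spread between these samples.

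Intensities below 16 were set to 16 and log2 transformed, and the 20416 probes of higher mean were fitted with limma 3.58.1 in R 4.3.3 (lmFit and eBayes, each line a coefficient), and p-values were adjusted by Benjamini and Hochberg over all probes tested. As in the methods, a call required both an adjusted p under 0.01 and at least a 2-fold difference. The changes between replicates 1 and 2 went together in different lines (r of 0.728 to 0.840 over probes for each of the 6 line pairs), so the numbers pair the arrays, and the fit was repeated with the replicate number as a term (3 residual and 3.96 prior degrees of freedom, against 4 and 2.34 without it). The brightest probe stood for a gene. Python 3.11.15, numpy 2.4.6, pandas 2.3.3 and matplotlib 3.10.9 were used for tables and figures, and the fits were tested on simulated data.

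The genes and lists were chosen with earlier results of these data known. Named were the 3 genes, pathway genes called by either fit, the brightest gene of each list, and the 5 genes most like each of the 3. CAD2, CAD8A, HCT1, HCT2, CHS2, CHI, 4CL1, 4CL2 and 4CL3 were chosen after their values were seen. Alternatives were quantile normalization, a floor of 32, no floor with 1 added, the mean of all probes of a gene, all probes, only the lines compared, an adjusted p under 0.05, the methods' t-test, and leaving out each array.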

Additional observations from a re-analysis of the deposited data

Results flagged for a closer look

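PAL06 differed in direction between CMS lines set against the same MB arrays. In ZS97-A/MB its log2 difference from MB was 0.30, above 0 on both arrays, and in XQZ-A/MB it was -1.49, below 0 on both arrays. The difference between the lines was not tested.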

How the results depend on the processing

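The signs of the differences of CHS1, 4CL5 and PAL06 from MB were the same under quantile normalization and other floors. The CHS1 signs were also the same with the mean of all probes, which could not change 4CL5 and PAL06, with 1 probe each. The replicate block could not change these differences, since each line has 1 array of each replicate number. Over these settings and the block, contrasts between CMS lines included, 114 values stayed within the spread between replicates and 12 moved beyond it. The 114 include the values that could not move. With a floor of 32, CHS1 was at -0.94 in the CMS mean and in each CMS line, since all CMS values lie under that floor. 4CL5 was then at -0.74 in the CMS mean, -0.77 in D62-A/MB, -0.91 in XQZ-A/MB, 0.31 for ZS97-A/MB against the other CMS lines and 0.13 for D62-A/MB against XQZ-A/MB, and PAL06 at -1.15 in XQZ-A/MB and 1.03 for D62-A/MB against XQZ-A/MB. With no floor, chosen after seeing the data, CHS1 was at -2.58 in XQZ-A/MB.

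The count of pathway genes called in XQZ-A/MB was 0 without the replicate block and 1 with it (ROMT-17), also with quantile normalization, and with no floor or an adjusted p under 0.05, both chosen after seeing the data. With the block and all probes it was 0, and the block changed no other pathway call. The median difference of the 17 pathway genes in the CMS mean was -0.23 with 13 below 0, and -0.0071 with 9 below 0 at a floor of 32. Without the block, it was 0.28 (4 below 0) without MB replicate 2 and -0.67 (16) without MB replicate 1. It was 0.015 (8) without D62-A/MB replicate 1 and -2e-04 (9) without XQZ-A/MB replicate 1. The medians over all tested probes in these fits, in the same order, were 0.37, -0.34, 0.16 and 0.16. With the block it was 0 without MB replicate 2 and -0.31 without MB replicate 1, beside 0 and 0.02 over all tested probes. For the former no count below 0 is given, since several of the genes lay under the floor on every replicate 1 array. The methods' t-test called 0 pathway genes and, over all tested probes, 4 in the CMS mean and 0 in the other contrasts after adjustment.

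Leaving out each array in turn, with and without the block, the pathway calls ran from 0 to 1 in XQZ-A/MB and stayed 0 elsewhere. CHS1 ran from -2.87 to -0.62 in the CMS mean, -2.85 to -0.60 in D62-A/MB, -2.87 to -0.62 in ZS97-A/MB, -2.89 to -0.64 in XQZ-A/MB, -0.37 to 0.37 for ZS97-A/MB against the other CMS lines and -0.36 to 0.43 for D62-A/MB against XQZ-A/MB. 4CL5 ran from -1.42 to -0.73, -1.33 to -0.64, -0.87 to -0.18, -2.05 to -1.36, 0.64 to 0.99 and 0.38 to 1.06 in the same contrasts, and PAL06 from -0.78 to -0.10, -0.62 to 0.36, -0.055 to 0.66, -1.83 to -1.15, 0.75 to 1.46 and 0.87 to 1.85. Without the block, a line left with 1 array was set against lines with arrays of both replicate numbers. With the block alone, PAL06 ran from 0.26 to 0.34 in ZS97-A/MB and from -0.35 to 0.09 in D62-A/MB. 4CL5 then ran from -0.70 to -0.36 in ZS97-A/MB, and CHS1 from -2.85 to -0.64 in the CMS mean. The cause of the shifts was not tested.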
